A study of Ulmus pumila with 3 samples.

Results

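The names of the miR156, miR157, miR172, miR529 and miR535 families were examined in small RNA libraries from roots of Siberian elm (Ulmus pumila) seedlings. A name was taken when its number was exactly that of a family, followed by a letter, an arm or nothing, which gave 36 of the 309 miRNA names listed in the libraries together. Of these, 19 are names of miR156, 3 of miR157, 8 of miR172, 2 of miR529 and 4 of miR535. The roots came from wild-type seedlings of 30 days, either kept without added salt (control) or treated with NaCl, at 50 mM over 6 h or at 200 mM over 24 h. There is a single library for each of these conditions, so no difference between conditions has a replicate check and none was tested. All intervals are 95% intervals of counting error within a library. Dose and time change together between the salt libraries, so their parts cannot be told apart. The tables list miRNAs only, with no root marker against which the labelled tissue could be checked.

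In flowering plants, miR156 and the near-identical miR157 hold down mRNAs of SPL (SQUAMOSA promoter binding protein-like) transcription factors. They are abundant in young plants, and their decline lets SPL factors promote adult leaves and flowering. In Arabidopsis, SPL factors switch on miR172, which acts against AP2-like repressors of flowering, and SPL factors also restrain lateral root growth. miR529 and miR535 resemble miR156 in sequence, and both are known from rice to act on SPL genes.

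The leading name of each family is shown here, because the families differ in where they carry the shared bases. Bases 2 to 8, the seed, are in capitals, and each sequence is written 5′ to 3′ as deposited. For miR172, the less counted miR172c is added. miR172b, which ties miR172a in counts, is complementary to it, has another seed and is shown further below.
miR156a: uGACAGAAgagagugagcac
miR157a-5p: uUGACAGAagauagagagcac
miR529a: aGAAGAGAgagaguacagcuu
miR535a: uGACAACGagagagagcacgc
miR172a: gGAAUCUUgaugaugcugcagcag
miR172c: aGAAUCUUgaugaugcugcag

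The run GACAGAAGA, searched on both strands, was in 16 of the 36 names (14 of miR156 and 2 of miR157) and in none of the 273 names outside these families. In miR157a-5p this run lies 1 base further from the 5′ end than in miR156a, so the seeds of the leading names differ by a shift. miR529a begins at base 5 of miR156a and matches it at 14 of 16 overlapping bases. Against miR156e it matches at 15 of 16. miR535a, laid without gaps from base 2 of miR156a, matches at 12 of 19 bases. Both names begin with UGACA, which this placement does not line up. The names of miR172 form a separate sequence group, with the seed GAAUCUU in 6 of 8.

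By length, 17 of the 36 names are 21 nt and 15 are 20 nt, while 12 of the 19 miR156 names are 20 nt. Among all 309 names, 196 are 21 nt and 59 are 20 nt. A 5′ uracil opens 19 of the 36 names, or 52.8%, against 63.4% of all names. All 4 miR535 names start with it, none of the miR172 or miR529 names does, and 3 of the miR172 names and both miR529 names start with adenine.

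The counts of all names summed to between 449522 and 545587 per library, so that 1 read was worth between 1.83 and 2.22 reads per 1000000 counts of all names (RPM). The 36 names together accounted for 0.552% of the control total (0.531% to 0.572% by the exact binomial interval). Their share was 0.531% (0.510% to 0.552%) at the lower dose and 0.404% (0.387% to 0.421%) at the higher. These shares count some reads more than once, because several names have the same counts. Joining names of shared sequence and near-equal counts, in the totals as well, gave higher shares. They were 0.647% in control, 0.588% at 50 mM and 0.436% at 200 mM. Of the names, 32 were listed in control, 35 at 50 mM and 34 at 200 mM, and 30 in every library. Only 8 reached 20 counts in a library. The other 28 had at most 16 counts.

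Across the 8 well-counted names, miR529a stood higher in both salt libraries, and the rest stood lower at 200 mM than in control. Names listed in both libraries entered a comparison if either count reached 20. Those whose RPM differed by a factor of 2 or more, with an interval excluding 1, were called. At 50 mM against control, 1 of 8 compared names was called, miR156e (lower), where 4.94% of all 162 compared names were called, 1.85% higher and 3.09% lower. At 200 mM against control, 2 of 8 were called, miR529a (higher) and miR156e (lower), where 20.2% of all 168 were called, 3.57% higher and 16.7% lower. Between the salt libraries none of 7 was called, where 25.2% of all 159 were, 6.29% higher and 18.9% lower. The comparisons with control share the same control library, and miR156e reached 20 counts only there. The median log2 ratio of the compared names was −0.08 at 50 mM, where that of all compared names was also −0.08, and −0.52 at 200 mM, where that of all compared names was −0.40.

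**Figure D1:**
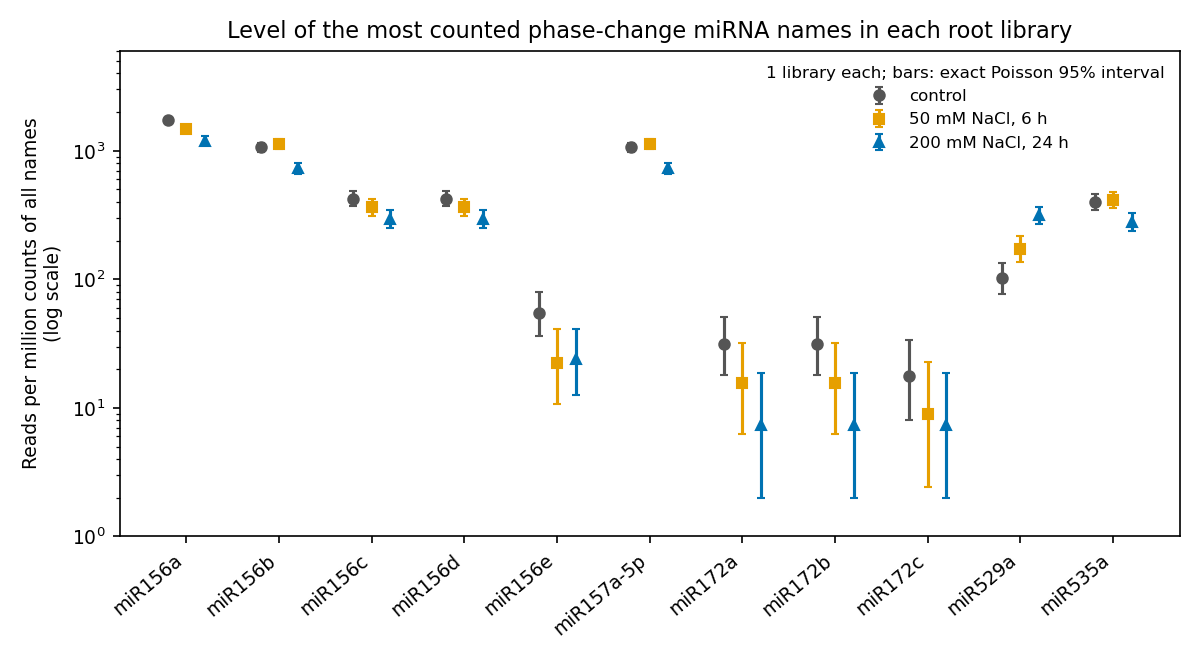
RPM (log axis) for the 8 names with at least 20 counts in a library and for the leading miR172 names. Points are single libraries and bars are exact Poisson 95% intervals. miR529a goes from 102 RPM in control to 317 at 200 mM, while miR156a goes from 1726 to 1197.

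miR529a had the clearest difference among the members. Its counts were 52 in control, 78 with 50 mM and 173 with 200 mM. These counts are levels of 102 RPM (exact Poisson interval 76.3 to 134), 174 (137 to 217) and 317 (272 to 368). The intervals of neighbouring libraries do not overlap, and the order follows dose and time together. Its ratio to control was 1.70 (1.18 to 2.46) with 50 mM and 3.11 (2.27 to 4.32) with 200 mM, and the ratio between the salt libraries was 1.83 (1.39 to 2.42). Ranked by count, it was at place 114 in control, 108 with 50 mM and 87 with 200 mM. The ratio between the salt libraries stayed under the size of 2 with totals as the scale and passed it with TMM (trimmed mean of M-values) factors, at 2.22, and with median-of-ratios factors, at 2.26.

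The other miR529 name, miR529b, carries U14C against miR529a, counted from the 5′ end of miR529a. It was not listed in control and had 1 count in each salt library. Its first 16 bases match miR156o without a mismatch from base 5 of that name. Nothing about miR529b can be compared at this depth.

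The miR156 family was the most counted of the 5, with 1917, 1559 and 1432 counts summed over names in control, at 50 mM and at 200 mM. miR156a, its leading name, had 879, 666 and 653 counts. In RPM these are 1726 (1614 to 1844), 1482 (1371 to 1598.5) and 1197 (1107 to 1292). Control was highest and the 200 mM library lowest, with no overlap of the intervals. The ratio of miR156a to control was 0.858 (0.775 to 0.950) at 50 mM and 0.693 (0.626 to 0.768) at 200 mM, neither past the size of 2. With median-of-ratios factors the ratio at 200 mM was 0.892 (0.805 to 0.989), and the ratio between the salt libraries went from 0.808 (0.724 to 0.901) to 0.997 (0.894 to 1.11).

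Summed over names, miR156 stood at 0.921 of its control level at 50 mM (0.832 to 1.02) and at 0.697 at 200 mM (0.629 to 0.772). After subtraction of the median over all compared names, the log2 ratio of the family was −0.04 at 50 mM and −0.12 at 200 mM. The family thus lay close to the general level of the names in both comparisons. miR529, by the same measure, was at 0.86 and 2.05.

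Within miR156, the RPM of miR156a, miR156c and miR156d was highest in control and lowest at 200 mM. The names miR156b and miR156e departed from this order only between libraries whose intervals overlap. miR156c and miR156d share 19 bases and had identical counts, 216, 164 and 162. Their level relative to miR156a was nearly the same in every library, at 24.6, 24.6 and 24.8 reads per 100 reads of miR156a. miR156b had 543, 506 and 398 counts, with a ratio to control of 1.06 in the 50 mM library, whose interval includes 1 (0.933 to 1.19), and of 0.684 (0.600 to 0.780) in the 200 mM library.

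miR156b is the first 19 bases of miR157a-5p and had exactly its counts in every library, so the tables give no way to part these names, and a summed miR156 includes reads that are also listed as miR157. The pair is shown for that reason, with the seed in capitals.
miR156b: uUGACAGAagauagagagc
miR157a-5p: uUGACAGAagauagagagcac
miR157b: uGACAGAAgauagagagcac

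miR157a-5p held nearly all miR157 counts, 98.7% in control (97.4% to 99.5%), 98.3% (96.7% to 99.2%) with 50 mM and 97.5% (95.5% to 98.8%) with 200 mM. Its level was 1066 RPM (978 to 1160) in control, 1126 (1030 to 1228) at 50 mM and 729 (660 to 805) at 200 mM. The control and 50 mM libraries overlap and the 200 mM library lies below both. Between the salt libraries its ratio was 0.648 (0.567 to 0.740), and 0.800 (0.700 to 0.914) with median-of-ratios factors. miR157b lacks the first base of miR157a-5p and had only 7, 9 and 9 counts, so overlapping names did not always share their counts. The opposite arm, miR157a-3p, was listed only at 200 mM, with 1 count.

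miR156e, the member called lower in both comparisons with control, differs from miR156a by C18U, counted from the 5′ end of miR156a. It had 28 counts in control, 10 at 50 mM and 13 at 200 mM, which are 54.98 RPM (36.5 to 79.5), 22.2 (10.7 to 40.9) and 23.8 (12.7 to 40.7). The control library is highest, and its Poisson interval overlaps those of both salt libraries. Only the control count reached 20, so miR156e entered both comparisons through the library where it was highest. Both calls rest on that same control value. The ratio to control was 0.405 (0.175 to 0.858) at 50 mM and 0.433 (0.206 to 0.865) at 200 mM. With TMM or median-of-ratios factors it was no longer called at 200 mM. Set against miR156a in the same library, which needs no scaling, it had 3.19 reads per 100 (2.10 to 4.64) in control, 1.50 (0.717 to 2.78) at 50 mM and 1.99 (1.05 to 3.43) at 200 mM. The ratio of these to control had intervals that include 1, at 0.471 (0.203 to 1.01) and 0.625 (0.295 to 1.26).

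In all, 9 names of miR156 differ from miR156a by a single base at equal length, at 8 different positions. Besides miR156e they include miR156f (U1C), miR156h (A12G), miR156j (U14C) and miR156o (U14A). Summed, the 9 had 50, 32 and 32 counts, or 5.69, 4.80 and 4.90 per 100 reads of miR156a. Without miR156e the other 8 had 22, 22 and 19 counts, or 2.50 (1.56 to 3.81), 3.30 (2.06 to 5.04) and 2.91 (1.74 to 4.58) per 100. These intervals overlap in all libraries. No genome position was used here, so it was not tested whether each name comes from a locus of its own.

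One name of the family has another sequence. miR156n lies whole, at 18 of 18 bases, inside miR159t, a name of the MYB-targeting miR159 family, and it matches miR159a at 16 of 18 bases. It lacks the run GACAGAAGA, and its closest name in the 5 families, miR156b, differs from it at 7 of 16 bases. The sequences are shown because the name and the sequence point to different families.
miR156n: aUUGGAGUgaagggagcu
miR159t: aUUGGAGUgaagggagcuccg
miR159a: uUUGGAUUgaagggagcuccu

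miR156n and miR159t had the same counts, 2, 4 and 5. They are few beside the 1917, 1559 and 1432 counts of the summed family.

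miR535a made up 91.9% of the miR535 counts in control (87.4% to 95.1%), 94.4% (90.3% to 97.2%) with 50 mM and 93.3% (88.3% to 96.6%) with 200 mM. It had 203, 187 and 153 counts, or 399 RPM (346 to 457), 416 (359 to 480) and 280.4 (238 to 329). The 200 mM library is below the others, which overlap. Its ratio to control was 1.04 (0.851 to 1.28) with 50 mM and 0.704 (0.567 to 0.872) with 200 mM, and with TMM factors the latter was 0.888 with an interval that includes 1 (0.715 to 1.10).

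The names miR535b (C21U against miR535a, counted from its 5′ end) and miR535c (C21G) had identical counts, 9, 5 and 4. miR535d differs from miR535a by C7U and G20A, so that its seed differs, and was listed only in the salt libraries, with 1 and 3 counts. A name that the authors listed as a new miRNA, new-30-5p, has the seed of miR535a and differs from it at 1 of 21 bases. It had 12, 11 and 6 counts.
miR535a: uGACAACGagagagagcacgc
new-30-5p: uGACAACGagggagagcacgc

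miR172 was the least counted family of the 5 in both salt libraries, with 69 counts in control, 34 at 50 mM and 25 at 200 mM summed over its 8 names. By leading name it was the least counted in control too, with 16 counts of miR172a against 52 of miR529a. All 8 miR172 names were listed in every library, and none reached 20 counts. miR172a had 16, 7 and 4 counts, or 31.4 RPM (17.96 to 51.0), 15.6 (6.26 to 32.1) and 7.33 (1.998 to 18.8). Neighbouring intervals overlap. Its ratio to control was 0.496 (0.172 to 1.27) at 50 mM and 0.233 (0.0568 to 0.723) at 200 mM. The summed family stood at 0.558 (0.194 to 1.43) and 0.338 (0.0823 to 1.05) of control, with intervals as wide as that of miR172a. With no count minimum, and unlisted names set against 3 counts, miR172a and miR172b would be called lower at 200 mM against control.

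The 8 names do not hold 8 separate measurements. miR172b had the counts of miR172a in every library and is complementary to it over 19 of 19 overlapping bases, so these names cannot be told apart as measurements. miR172d, miR172e and miR172f also had identical counts, 8, 4 and 3. When names sharing sequence and near-equal counts were joined, 3 miR172 names were left, whose own counts sum to 27, 14 and 10. At counts this low the joining rule is easily met, so it does not show that names of differing counts share reads. miR172c, which opens with the adenine and seed shown above, had 9, 4 and 4 counts. With the same opening, miR172g had 2, 3 and 2 counts and miR172h 2, 1 and 2, equal in control and at 200 mM.
miR172b: gCAGCAUCaucaagauuccca
miR172d: gGAAUCUUgaugaugcugca
miR172e: gAAUCUUGaugaugcugcau
miR172f: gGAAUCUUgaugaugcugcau

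**Figure D2:**
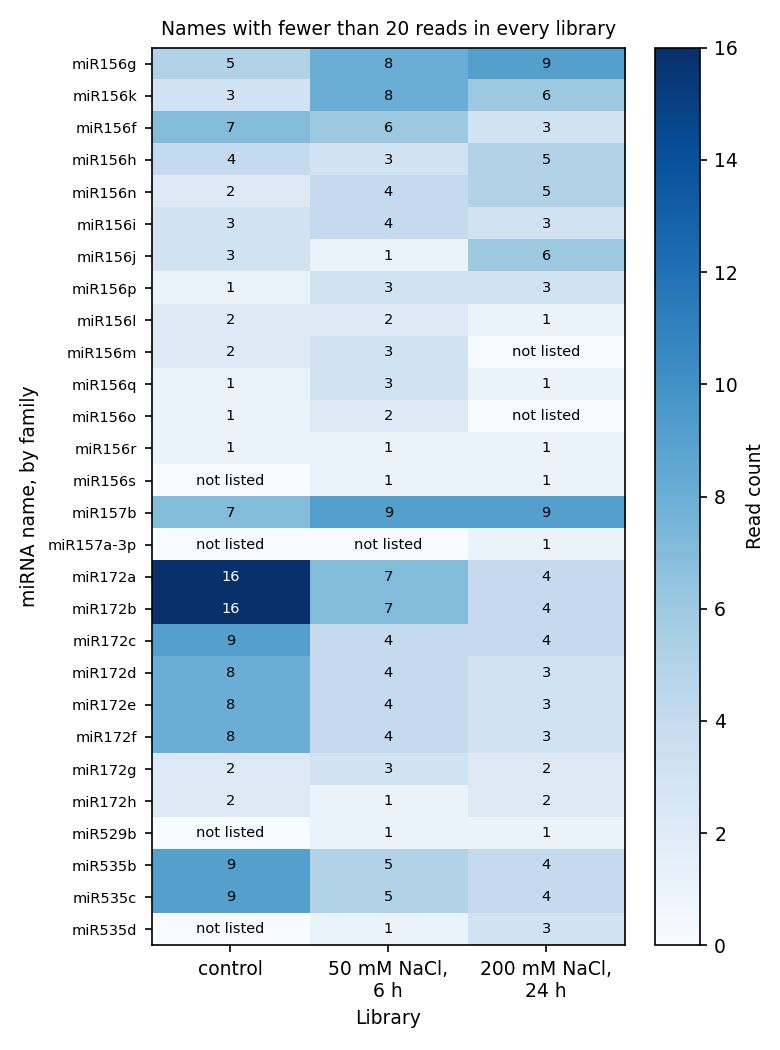
Read counts of the 28 names that stayed under 20 counts in every library (rows, ordered by family) in the 3 libraries (columns). Shading follows the count, and a name missing from a table is marked as not listed. miR172a and miR172b, at 16 counts in control, are the highest values.

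**Figure D3:**
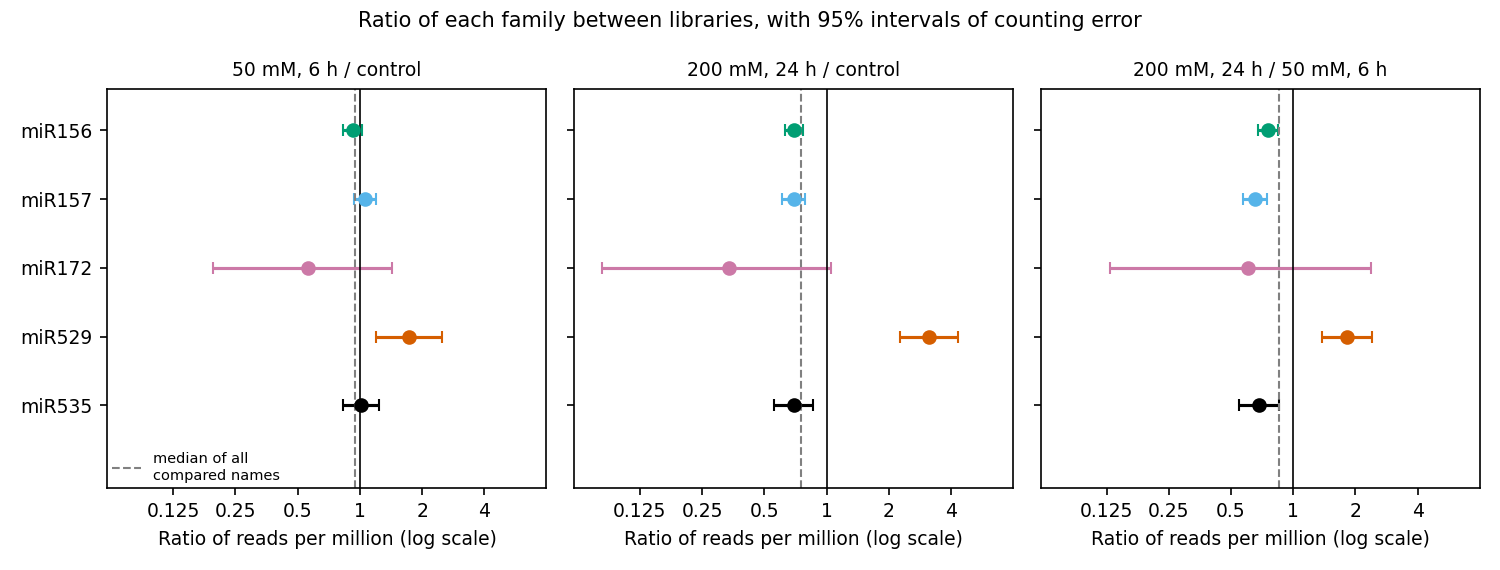
Ratio of RPM (log axis) of each summed family in the 3 comparisons of libraries, with 95% intervals as wide as that of the most counted name. The solid line marks a ratio of 1 and the dashed line the median of all compared names. miR529 lies to the right of 1 in each panel, at 3.12 for 200 mM against control.

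Set beside each other at 200 mM against control, miR156, miR157 and miR535 had summed ratios of 0.697, 0.692 and 0.693. These are 0.923, 0.916 and 0.917 of the median ratio of all compared names, 0.756. The sum of miR156 includes miR156b, which has the counts of miR157a-5p, so the ratios of miR156 and miR157 are not separate measurements. At 200 mM 123 of the 168 compared names lay below a ratio of 1. TMM and median-of-ratios factors raise every log2 ratio of that comparison by 0.34 and 0.36, which leaves the 3 families between 0.874 and 0.897 of control. The interval of miR535 then includes 1 with either factor, and that of miR157 with median-of-ratios factors. miR529 had a summed ratio of 3.12 (2.28 to 4.34) and of 3.94 and 4.02 with these factors. With near-equal names joined, miR529 was lower, at 2.79 (2.04 to 3.88). The other 3 families were then lower too, at 0.617 for miR156, 0.623 for miR157 and 0.633 for miR535.

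**Figure D4:**
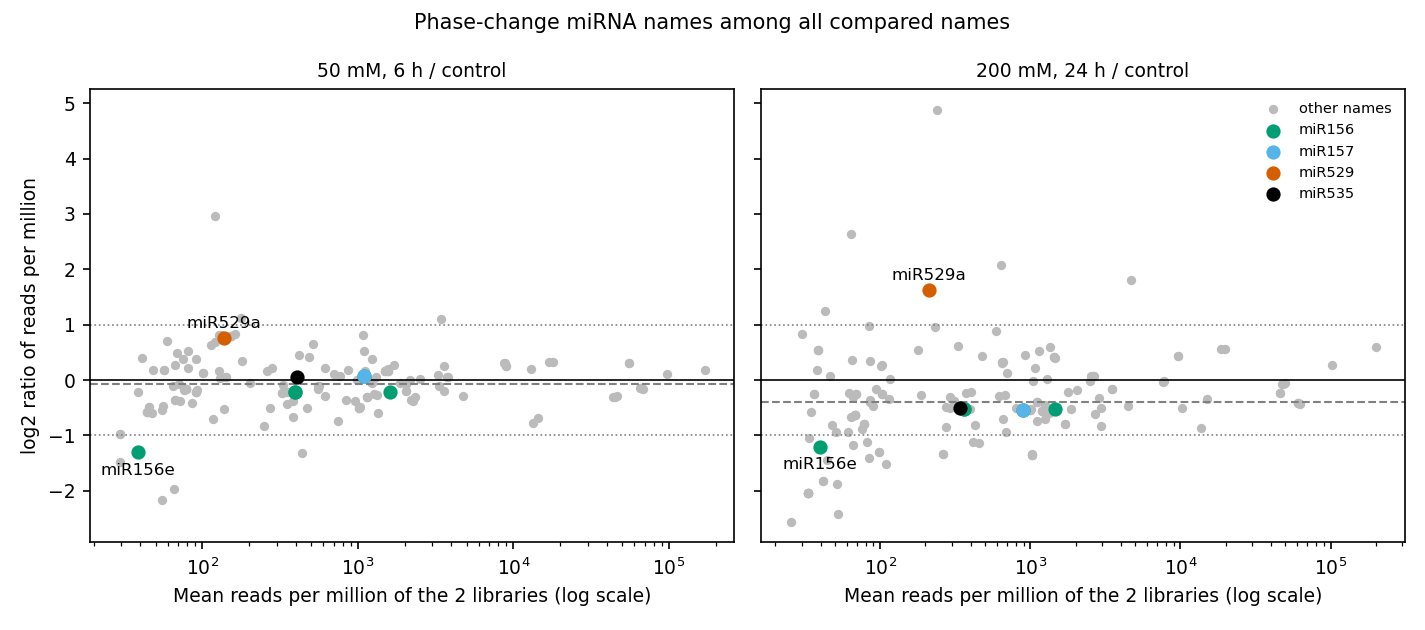
The log2 ratio to control of every compared name against its mean RPM (log axis), at 50 mM (left) and 200 mM (right). Dashed lines mark the median of all compared names and dotted lines a ratio of 2 in either direction. Names with equal counts lie on each other, and at 200 mM only miR529a and miR156e of the coloured names lie outside the dotted lines.

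Ratios of 2 names in the same library do not depend on the scale between libraries. For every 100 reads of miR156a there were 5.92 reads of miR529a in control (4.38 to 7.83), 11.7 (9.14 to 14.8) with 50 mM and 26.5 (22.3 to 31.4) with 200 mM. The intervals of the 3 libraries do not overlap. Against control this ratio was 1.98-fold higher at 50 mM (exact interval of the odds ratio 1.35 to 2.91) and 4.48-fold higher at 200 mM (3.21 to 6.33). With the families summed it was 1.87-fold (1.29 to 2.72) and 4.48-fold (3.24 to 6.28). Both families are known to act on SPL mRNAs, and here their proportion differed between libraries while miR156a stayed the more counted name.

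miR529a also differed in proportion to the other SPL-linked names. For every 100 reads of miR157a-5p there were 9.58, 15.4 and 43.5 reads of miR529a, a ratio 4.54-fold higher at 200 mM than in control (3.21 to 6.48). For every 100 reads of miR535a there were 25.6, 41.7 and 113, a ratio 4.41-fold higher (2.99 to 6.55). miR529a was thus less counted than miR535a in control and at 50 mM. At 200 mM the interval of their ratio, 0.904 to 1.41, includes 1.

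Against miR156a, miR157a-5p had 61.8 reads per 100 in control (55.4 to 68.8), 76.0 (67.5 to 85.4) with 50 mM and 60.9 (53.7 to 69.1) with 200 mM. The proportion at 50 mM was 1.23-fold that in control (1.05 to 1.44), and that at 200 mM was 0.987-fold (0.834 to 1.17). miR535a had 23.1, 28.1 and 23.4 reads per 100, with intervals of the change that include 1, at 1.22 (0.967 to 1.53) and 1.01 (0.798 to 1.29). miR172a had 1.82 (1.04 to 2.97), 1.05 (0.421 to 2.18) and 0.613 (0.166 to 1.58). Its change at 200 mM, 0.337, has an interval that includes 1 (0.0815 to 1.05).

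**Figure D5:**
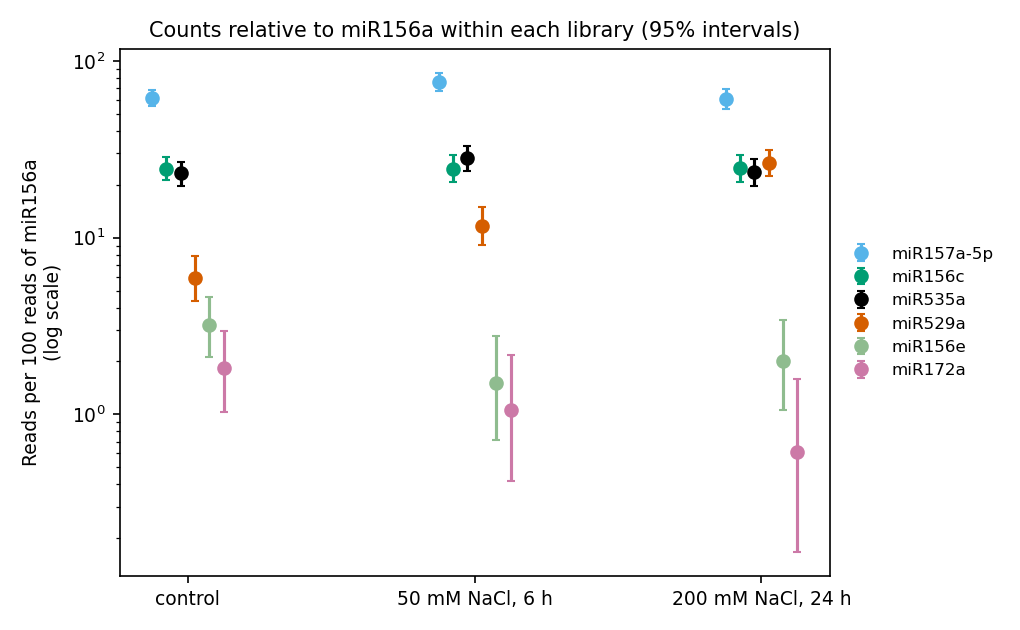
Reads per 100 reads of miR156a (log axis) in the same library for 6 names of the families, with exact 95% intervals, for each of the 3 libraries. miR529a goes from 5.92 to 26.5, while miR156c stays between 24.6 and 24.8.

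Other families with known parts in developmental timing were listed for comparison. Their levels are sums over names, and names that overlap can count the same reads more than once. miR159, which acts on GAMYB-like factors, stood at 408129 RPM in control, 410585 at 50 mM and 504396 at 200 mM. miR319, which acts on TCP factors, stood at 39171, 47192 and 53071 RPM. miR171, which acts on GRAS factors, stood at 7183, 7937 and 4375 RPM, and miR396, which acts on growth-regulating factors, at 707, 621 and 436 RPM. At 200 mM against control, 6 of 11 compared miR171 names were called lower, where 16.7% of all compared names were. These 6 are 3 pairs of names with identical ratios and levels, so they hold 3 measurements. Among the names not called, miR171b, miR171c and miR171d also share their ratio and level, so the 11 compared names hold fewer measurements too. None of the 16 names of miR159, 7 of miR319 and 8 of miR396 was called. At 50 mM none of the names of these 4 families was called. No name carries the number of miR390 or miR824. The SPL-linked families were thus minor beside miR159 in every library, with miR156 at 3764, 3468 and 2625 RPM.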

How the data were processed

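Small RNA from roots of 3 groups of seedlings was sequenced, 1 library per group. Trizol RNA and an NEBNext kit for small RNA were used, per the labels' protocols. Aligner, reference and allowed mismatches: not given in the sources used here. Read counts are whole numbers for each name in the deposited tables, per the file headers. The authors' TPM equals the count per 1000000 counts of its table for every name, within a relative difference of 1e-06. It has no length correction and is called RPM here. A name missing from a table was taken as not listed, with a count of 0, and given no ratio, except in the alternative with no count minimum, where it was set against 3 counts. Totals (509280, 449522 and 545587 counts) are sums over names, not sequencing depth. Amplified reads are not independent molecules, so intervals cover counting error only.

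Ratios have exact conditional binomial (Clopper-Pearson) 95% intervals and levels exact Poisson ones. Proportions of 2 names in a library have exact binomial intervals. Changes of these proportions between libraries have the interval of the exact conditional odds ratio (scipy 1.17.1). For a family, the interval takes the relative width found for its leading name. TMM and median-of-ratios factors came from edgeR 4.0.16. As an alternative, names were joined where they share 16 nt or more (either strand, up to 2 mismatches) and differ in count by no more than 5% or 3 reads in each library, which left 201 of the 309 names and 14 of the 36. Members, lists and rules were chosen with earlier results of these data known, and proportions other than that of miR529 to miR156 after their values were seen. All 36 names were eligible for the text, in full for those with 20 counts or leading a family.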

Additional observations from a re-analysis of the deposited data

Results flagged for a closer look

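The names miR156b and miR157a-5p, which have the same counts, stood on opposite sides of control in the salt libraries, with ratios to control of 1.06 (50 mM, 6 hours) and 0.684 (200 mM, 24 hours). miR535a did so too, with 1.04 and 0.704. With 1 library each, these opposite directions were not tested, and both ratios at 50 mM have intervals that include 1.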

How the results depend on the processing

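Of the family ratios, only that of miR535 at 50 mM against control changed direction under a setting tried, from 1.02 to 0.990 with near-equal names joined, both with intervals that include 1. Between the salt libraries, miR156c and miR156d went from 0.814 to 1.00448 with median-of-ratios factors, also with intervals that include 1. At 200 mM against control, TMM and median-of-ratios factors moved miR156 to 0.880 and 0.897, miR157 to 0.874 and 0.891, and miR535 to 0.875 and 0.891. Between the salt libraries they moved miR156 to 0.918 and 0.934 and miR157 to 0.792 and 0.806, with intervals that include 1 for miR156. With near-equal names joined, miR156 was at 0.814 at 50 mM, with an interval that then excludes 1 (0.735 to 0.902), and 0.617 at 200 mM against control. By construction joining changes the totals and drops miR156b, the second most counted miR156 name, with miR156g and miR156k in favour of miR157 names. All names called higher at 200 mM against control were 10 with TMM and 10 with median-of-ratios factors against 6, and those called lower 15 with median-of-ratios factors against 28. Lower names between the salt libraries were 19 with the latter against 30. With no count minimum and, at the same time, unlisted names set against 3 counts, 8 names instead of 3 were higher at 50 mM, so the part of each choice is not separated. The ratio of miR529 to miR156 counts, 0.0271, 0.0507 and 0.122 by library with summed names, was 0.0592, 0.117 and 0.265 with the most counted names and 0.0460, 0.0922 and 0.208 with joined names. Totals without miR159a moved no family ratio outside its interval. No paired analysis was possible because each condition has 1 library, and for the same reason no replicate could be left out. Names under 20 counts, all of miR172 among them, are limited by depth.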
